A study of Mus musculus with 54 samples.

Results

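This report concerns mouse embryonic stem cells on day 1 after transfer to retinoic acid medium, in which Ezh2 carried arginines in place of its automethylated lysines (amKR) or was unaltered (WT). The comparison uses 6 of the 54 libraries of the series, 3 labelled amKR on day 1 and 3 labelled WT on day 1, chosen by their titles. Per the labels and the design text, all lines are Ezh1-/- and Ezh2-/- and were made from 129P2/Ola cells: amKR carries a PiggyBac vector with Ezh2 bearing K510R, K514R and K515R, WT the same vector with unaltered Ezh2, and EV the empty vector. Day 1 cells had been kept in medium with 0.1 µM retinoic acid and without LIF, CHIR99021 and PD0325901. Day 0 cells grew in serum medium with LIF and both inhibitors, and day 4 cells stayed in the retinoic acid medium. Each genotype is given as 1 named cell line, so a difference caused by the lysines and a difference between 2 lines cannot be told apart. The labels do not say whether the 3 libraries of a group came from separate cultures, and p-values then measure only the spread between these libraries.

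Polycomb repressive complex 2 (PRC2) places methyl groups on lysine 27 of histone H3 and so holds developmental genes silent. Ezh2, or its paralog Ezh1, is the catalytic subunit, while Suz12 and Eed are needed for a stable and active complex. The enzyme also methylates itself on lysines in a flexible loop, and this automethylation is known to raise its activity on histones. In embryonic stem cells PRC2 sits mainly on CpG-rich promoters of developmental regulators, many of which switch on when retinoic acid starts differentiation.

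The bases that the altered lysines come from are shown because they define the mutant. They were read from the GENCODE vM21 transcript Ezh2-201 (746 codons, chromosome 6, minus strand, GRCm38 chr6:47541957-47542399, codons 500 to 515, within the coding sequence of exons 13 and 14). The capitals mark the lysine codons 505, 509 and 510.

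Ezh2-201: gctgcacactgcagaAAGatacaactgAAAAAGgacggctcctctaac

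The labels number the lysines 510, 514 and 515. Codons of those numbers in Ezh2-201 hold 1 lysine, and the marked codons, all in exon 13, are the only ones within 20 codons with the labelled spacing, and the protein form that the labels' numbers refer to is not given in the sources used here. The Ezh2 sequence in the vectors was not analysed here.

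The libraries were QuantSeq 3′ libraries, in which reads come from close to the poly(A) tail. Reads on genes numbered 4223028 to 4537799 in the amKR libraries and 4611400 to 4697290 in the WT libraries, of 7998368 to 8001003 reads in all per library. Reads outside annotated genes took 19.2% to 22.2% of the amKR libraries and 17.8% to 19.05% of the WT libraries, so neither measure overlapped between the groups, and its part in the results was not tested. The amKR library 2 stood apart from its replicates, with a chi-square per degree of freedom of 10.93 and 14.77 against the other amKR libraries, where the other pairs within a group gave 2.95 to 4.62. It also had the highest share of reads outside genes and, on the component described next, the lowest amKR score. Values are in CPM, gene counts scaled for depth and library composition, and differences are log2 amKR minus WT with their standard error (SE). The summed levels of gene lists and the CPM of 3 counts were scaled for depth only, so they are not on the same scale as the CPM of single genes. A gene was called at an adjusted p under 0.05 in edgeR's quasi-likelihood test over all 14086 genes with enough counts, with Benjamini-Hochberg adjustment.

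A component of expression that varied between libraries within groups also set the 2 lines apart on day 1. It was defined from the 21 libraries of the Ezh2 series other than the 6 compared, in which it held 24.3% of the variance within groups against 10.5% for the next. The amKR libraries of day 1 scored 21.6, 6.26 and 15.1 on it, and the WT libraries -16.2, -7.18 and -16.3. The lines also stood apart on day 0, with amKR at 3.75, 4.98 and 4.73 and WT at -15.9, -42.2 and -11.0. On day 4 they overlapped, with amKR at -8.98, 5.40 and 21.7 and WT at 16.7, -21.0 and -20.8. The EV libraries of day 1 scored 19.8, 15.1 and -22.2, so 1 of them stood with WT. Among all genes tested, 3916 followed the component, 2147 of them rising with it. The same genes define the component, so this count is no separate evidence of it. Because the score separates amKR from WT on day 1, the covariate can also remove part of a difference between the lines. A call lost with it therefore cannot tell a difference of line from one of the component. The cause of the component was not tested, and values with it as a covariate stand beside the results that it changes or follows.

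After 1 day, 148 of 14086 genes were higher in amKR (1.05% of those tested) and 82 were lower (0.582%), 230 in all (1.63%). The higher genes had a median log2 difference of 1.01 and a median level of 26.5 CPM in amKR and 12.6 CPM in WT. The lower genes had a median of -0.62, with 38.6 CPM in amKR and 56.9 CPM in WT. Past a 2-fold change stood 79 higher and 7 lower genes, and 140 of the higher and 82 of the lower genes code for protein. Left out of the named genes were 19 called genes with predicted, clone, Riken or pseudogene names. The median over all genes was 0.02. In all 230 called genes the amKR and WT libraries did not overlap, which held for 3320 genes (23.6%) whether called or not. The count fell when a library was left out. It was 75 without amKR library 1, 55 without WT library 1, 76 without WT library 2 and 91 without WT library 3. Without amKR libraries 2 and 3 it was 185 and 194. A smaller group also gives less power, so a lost call does not by itself show that it rested on that library. With 1 library left out, the log2 difference moved little in some named genes (Fst, 1.7 to 1.91) and more in others (Hebp2, -2.08 to -1.16). With the shared component as a covariate 172 genes were called, 114 of them among the 230.

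**Figure D1:**
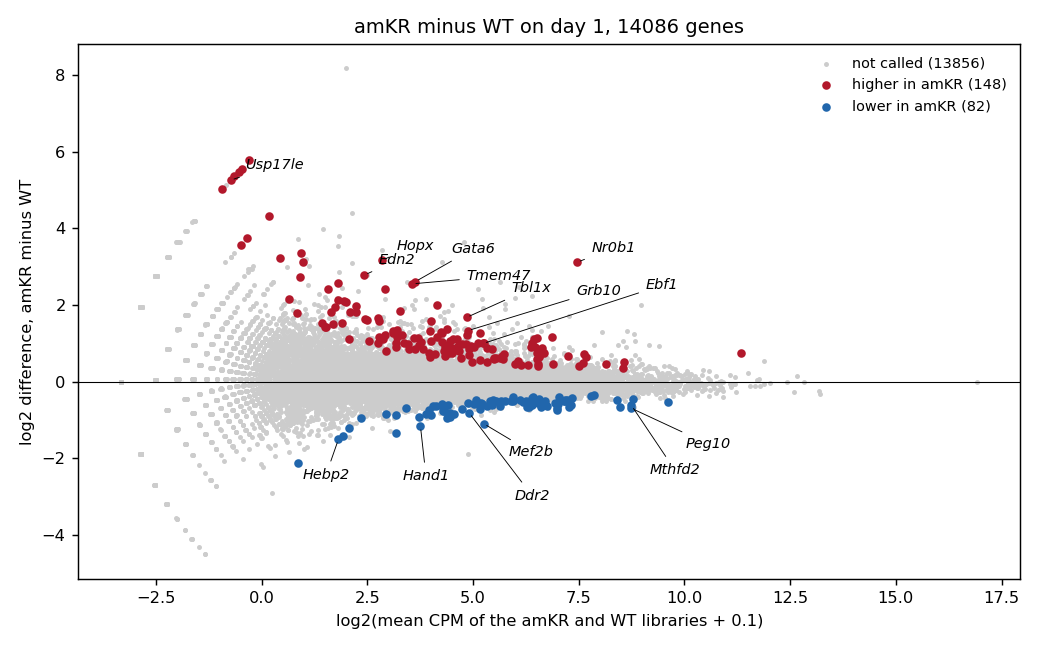
Log2 difference amKR minus WT on day 1 (vertical axis) against the log2 mean CPM of the 6 libraries plus 0.1 (horizontal axis), 1 point per gene tested. The 148 genes called higher in amKR are red, the 82 called lower are blue and the others grey, and the higher genes reach larger differences than the lower ones.

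The genes of PRC2 itself came first as a check of the labels. Ezh2 stood at 265, 263 and 285 CPM in amKR and at 234, 233 and 227 CPM in WT (log2 difference 0.23 ± 0.10, adjusted p 0.2457), so the amKR libraries were all above the WT libraries but the difference was not called. On day 0 Ezh2 was called higher in amKR (0.40, adjusted p 0.03032), and on day 4 it was not (-0.14, adjusted p 0.7013). The counts lie near the 3′ end and show neither which lysines are encoded nor whether a read came from the vector, and EV, labelled as lacking Ezh2, had 196, 183 and 196 CPM. Ezh1, the paralog removed per the labels, had 0, 0 and 0.221 CPM in amKR and no count in WT, against 5.15, 6.55 and 7.42 CPM in EV. In EV it averaged 9.29 CPM on day 0 and 5.58 CPM on day 4. Ezh1 RNA was thus counted in EV although the labels give all lines as Ezh1-/-, and whether that RNA is intact was not tested. Whether EV differs from amKR and WT in more than the vector was not tested either, and the EV values below carry this limit. Suz12 had 605, 687 and 576 CPM in amKR and 581, 564 and 659 CPM in WT (adjusted p 0.8358), with overlapping libraries. Eed had 233, 211 and 227 CPM in amKR and 184, 185 and 184 CPM in WT (0.28 ± 0.13, adjusted p 0.2347, and 0.05 with the component), and on day 0 it was called higher in amKR (0.53, adjusted p 0.01497).

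None of 6 core PRC2 subunits and none of 7 tested accessory subunits was called, with medians of 0.29 and 0.12 against 0.02 over all genes. Jarid2, which helps recruit the complex, had 939, 790 and 1073 CPM in amKR and 1164, 1141 and 1085 CPM in WT (-0.27 ± 0.10, adjusted p 0.1203). None of 20 PRC1 subunits (median -0.02) and none of 9 DNA methylation enzymes (median 0.06) was called either. Of 11 enzymes that act with or against PRC2, Nsd2 alone was called. Nsd2, a methyltransferase of histone H3 lysine 36, had 21.6, 30.2 and 25.7 CPM in amKR and 37.8, 36.2 and 42.2 CPM in WT (-0.58 ± 0.12, adjusted p 0.00683). The call was lost without amKR library 1 or WT library 3 (adjusted p up to 0.0812), and held with the component (adjusted p 0.01341).

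Of the 56 called genes that the naming rule gave, 13 stayed called under every alternative run, each library left out in turn included. Gata6, a transcription factor that drives cells into primitive endoderm, was the clearest developmental regulator among them. It had 18.8, 17.6 and 27.2 CPM in amKR and 2.25, 4.31 and 3.81 CPM in WT, with EV at 68.1, 71.2 and 59.4 CPM. Every amKR library lay above every WT library, and EV lay above both lines. The log2 difference was 2.61 ± 0.28 (adjusted p 2.22e-06, and 2.32 with the component). Because these are bulk samples, more cells with Gata6 RNA and more RNA per cell cannot be told apart, here and in every gene below.

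Tmem47, a membrane protein of cell junctions on chromosome X, had 24.6, 21.0 and 14.6 CPM in amKR and 2.70, 2.59 and 4.93 CPM in WT (2.55 ± 0.25, adjusted p 1.432e-07). Edn2, a vasoactive peptide of the endothelin family, had 10.7, 7.56 and 9.52 CPM in amKR and 1.12, 1.72 and 1.12 CPM in WT (2.78 ± 0.43, adjusted p 0.001181). Wt1, a zinc finger factor of kidney and gonad development, had 10.2, 13.2 and 13.1 CPM in amKR and 5.17, 4.74 and 5.16 CPM in WT (1.27 ± 0.22, adjusted p 0.00341). In each of these the groups stood well apart. Neither Edn2 nor Wt1 had a count in amKR or WT on day 0, and the other called genes without a day 0 count in either line were Ifit1 and Usp17le. With the component as a covariate the differences were 2.59 for Tmem47, 2.13 for Edn2 and 1.18 for Wt1.

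The remaining rises in this group of 13 were Grb10, Ebf1, Zfp827 and Sox4. Grb10, an imprinted adaptor that dampens insulin and growth factor signalling, had 47.5, 43.4 and 34.8 CPM in amKR and 13.7, 17.9 and 18.4 CPM in WT (1.33 ± 0.17, adjusted p 1.155e-05). Ebf1, a helix-loop-helix factor best known from B cells, had 53.3, 55.1 and 42.1 CPM in amKR and 23.6, 23.7 and 28.3 CPM in WT (0.99 ± 0.19, adjusted p 0.003707). Both showed no overlap, and EV had 25.3, 22.1 and 18.9 CPM of Grb10 and 48.4, 38.9 and 34.7 CPM of Ebf1. Sox4, a factor of the early epiblast and many progenitors, had 144, 108 and 130 CPM in amKR and 71.3, 76.3 and 79.8 CPM in WT (0.75 ± 0.14, adjusted p 0.00355, and 0.53 with the component, which it follows). Zfp827, a zinc finger gene, had 26.9, 27.8 and 23.7 CPM in amKR and 13.7, 15.7 and 12.6 CPM in WT (0.90 ± 0.17, adjusted p 0.003707).

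Lower in amKR under every alternative run for them were Peg10, Mthfd2, Mef2b, Ddr2 and Wwc2. Peg10, an imprinted gene derived from a retrotransposon and needed for the placenta, had 324, 318 and 338 CPM in amKR and 523, 519 and 546 CPM in WT (-0.70 ± 0.09, adjusted p 4.664e-05). Mthfd2, a mitochondrial enzyme of folate metabolism, had 358, 295 and 361 CPM in amKR and 540, 516 and 507 CPM in WT (-0.62 ± 0.10, adjusted p 0.0004314). Both lie on chromosome 6, where the median gene was slightly lower in amKR, and both stayed called with each chromosome's median removed. Mef2b, a MADS box factor on chromosome 8, had 28.5, 14.4 and 29.4 CPM in amKR and 63.6, 49.1 and 42.8 CPM in WT (-1.10 ± 0.19, adjusted p 0.00279), while EV had 1.40, 1.81 and 1.44 CPM. Ddr2, a receptor for collagen, had 22.5, 24.4 and 18.2 CPM in amKR and 38.4, 39.6 and 36.6 CPM in WT (-0.82 ± 0.15, adjusted p 0.003673). Wwc2, a scaffold of the Hippo pathway, had 118, 113 and 122 CPM in amKR and 176, 164 and 158 CPM in WT (-0.50 ± 0.09, adjusted p 0.003147).

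**Figure D2:**
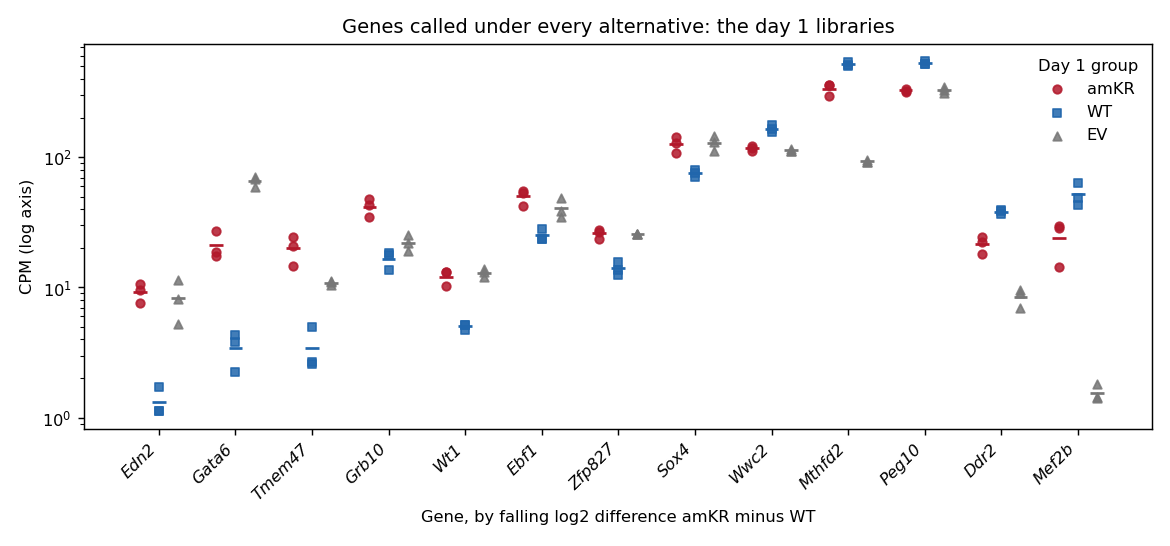
CPM on a log axis in the 3 amKR (red circles), 3 WT (blue squares) and 3 EV (grey triangles) libraries of day 1, with a bar at each mean. The 13 named genes shown were called under every alternative that gave them an adjusted p, and DESeq2 gave none for Edn2. The amKR libraries lie above all WT libraries in the first 8 genes and below them in the last 5.

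The promoters of Tmem47 and Grb10 are shown because these 2 genes, chosen after their values were seen, had the smallest adjusted p among genes of the naming rule that were higher on all 3 days. They are RefSeq windows of 300 bases on GRCm38.p6, from 250 bases before to 50 bases after the start, with each CG pair in capitals. Tmem47 lies at chrX:81070394-81070693 on the plus strand, and Grb10 at chr11:12037371-12037670 on the minus strand, the more CG-rich of its 2 windows.

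Tmem47: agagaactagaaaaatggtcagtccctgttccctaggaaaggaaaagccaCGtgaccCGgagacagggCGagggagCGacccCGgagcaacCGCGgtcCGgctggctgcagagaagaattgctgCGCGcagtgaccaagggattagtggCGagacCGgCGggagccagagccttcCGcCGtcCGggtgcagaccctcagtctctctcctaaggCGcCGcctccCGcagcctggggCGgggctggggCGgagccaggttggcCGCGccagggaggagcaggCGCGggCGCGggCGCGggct

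Grb10: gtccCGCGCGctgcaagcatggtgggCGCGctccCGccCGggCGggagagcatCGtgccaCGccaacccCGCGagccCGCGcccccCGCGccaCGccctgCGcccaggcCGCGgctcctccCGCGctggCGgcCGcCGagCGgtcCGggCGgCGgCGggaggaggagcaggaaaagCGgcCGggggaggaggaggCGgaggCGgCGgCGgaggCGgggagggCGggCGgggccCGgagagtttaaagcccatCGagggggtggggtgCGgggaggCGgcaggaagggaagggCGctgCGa

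The pair CG, which reads the same on both strands, occurred 29 times in the Tmem47 window and 45 times in the Grb10 window. Of 32851 windows in the table, 12.9% held at least as many as Tmem47 and 1.9% at least as many as Grb10. These 2 windows are richer in CG than most: among matched genes the median was 16.5 pairs in 98 genes called higher, 24.0 in 65 called lower and 22.0 in 10253 genes tested. A comparison of those groups was void, because only 66.2% of the higher, 79.3% of the lower and 72.8% of all tested genes matched the table by symbol. CG pairs describe the sequence, and binding of PRC2 was not measured.

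Some genes differed between the lines on every day. Called in the same direction on days 0, 1 and 4 were 20 genes, 16 higher and 4 lower in amKR, singled out here after their values were seen. Day 0 and day 4 share no library with day 1, although they use the same lines. Tbl1x, a subunit of the NCoR corepressor on chromosome X, had 39.4, 46.1 and 45.4 CPM in amKR and 16.4, 11.2 and 13.5 CPM in WT on day 1. Its log2 differences were 1.66 on day 0, 1.67 on day 1 and 1.71 on day 4, the day 1 value with the smallest adjusted p of the comparison (7.541e-09). Tmem47 differed by 1.96, 2.55 and 1.98 on the 3 days, Grb10 by 0.70, 1.33 and 1.15, and Nefl, the light neurofilament subunit, by 0.92, 1.27 and 1.37. Rpl39l, a paralog of a ribosomal protein that may share reads with its copies, differed by 0.98, 0.91 and 0.84.

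The higher genes of all 3 days held 3 genes of chromosome Y. Ddx3y, an RNA helicase, had 125, 116 and 101 CPM in amKR and 71.3, 67.4 and 81.2 CPM in WT on day 1 (0.64 ± 0.12, adjusted p 0.003707). Eif2s3y, a translation initiation factor, had 40.3, 25.6 and 32.5 CPM in amKR and 15.5, 18.1 and 18.2 CPM in WT (0.93 ± 0.18, adjusted p 0.006104). Uty, a homolog of histone H3 lysine 27 demethylases, had 22.9, 21.5 and 18.8 CPM in amKR and 11.5, 13.1 and 13.7 CPM in WT (0.72 ± 0.19, adjusted p 0.0402). No library overlapped in these genes. Leaving out 1 library ended the call of Uty (adjusted p up to 0.177, without WT library 1, and also lost without amKR library 1 or 2 or WT library 2 or 3) and of Eif2s3y (0.0793 without amKR library 1, and also lost without WT library 1). Uty was also not called with the component as a covariate (0.1717), without a low-count filter (0.0602) or without chromosomes 6 and 8 (0.05277). With each chromosome's median removed the differences were -0.02 for Ddx3y, the opposite sign, 0.27 for Eif2s3y and 0.07 for Uty, none called, on a chromosome with 6 genes tested. One more called gene of chromosome Y, Gm47283, was lower by 0.68 (-0.68, adjusted p 0.03633), and whether copy number differs was not tested.

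The 4 genes lower on all 3 days lie on chromosomes 6 and 8. Gars, a tRNA synthetase for glycine, had 631, 652 and 619 CPM in amKR and 888, 887 and 987 CPM in WT on day 1 (-0.54 ± 0.10, adjusted p 0.004146). Brk1, a subunit of the WAVE actin regulator, differed by -0.55 and Mkrn2, a zinc finger ubiquitin ligase, by -0.64, and the other was Mef2b. Brk1 lost its call without amKR library 1 or any WT library (adjusted p up to 0.107), and Mkrn2 without amKR library 1 or 3 or WT library 1 or 2 (up to 0.0825) and with the component (0.06628). On chromosome 6 the median log2 difference of 721 genes was -0.09 on day 1, -0.18 on day 0 and -0.15 on day 4, and on chromosome 8 the median of 744 genes was -0.11, -0.12 and -0.10. The medians of the other autosomes and X lay between -0.03 and 0.07 on day 1. Of the 82 genes called lower, 24 lie on chromosome 6 and 12 on chromosome 8 (43.9% of the calls, against 10.4% of the genes tested). Of windows of 10 Mb with at least 20 genes, 11 of 14 on chromosome 6 and 9 of 12 on chromosome 8 had a median below 0, and whether copy number differs between the lines was not tested.

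Whether the difference between the lines itself changed over time was tested as the difference of differences. Between day 1 and day 0 edgeR called 0 of 14086 genes (0%), with 983 at an unadjusted p under 0.05, while DESeq2 called 3. Called alone, day 0 had 631 genes (4.48%), 344 higher and 287 lower, and day 4 had 241 (1.71%), 172 higher and 69 lower. The median difference over all genes tested was -0.025 on day 0 and 0.004 on day 4. Of the 148 genes higher on day 1, 126 had a positive difference on day 0, of which 47 were called higher there, and 111 a positive one on day 4, of which 22 were called higher. Of the 82 lower genes, 78 were negative on day 0 (34 called lower) and 60 on day 4 (6 called lower). Named genes already called on day 0 included Stmn2 (0.53), higher in amKR, and Peg10 (-0.69) and Hebp2 (-1.01), lower.

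Between day 4 and day 1, 33 genes were called (0.234%), with 18 changes positive and 15 negative. The count was 14 to 17 without amKR library 1 or WT library 1 or 3 of day 1, without any amKR library of day 4 or without WT library 1 of day 4, and 107 with the component as a covariate. Gata6 differed by 2.61 on day 1 but by 0.36 on day 4, when amKR had 188 CPM and WT 147 CPM, and the change of the difference was -2.25 ± 0.34 (adjusted p 0.0009823). On day 0 it differed by 0.18 at 0.516 CPM in amKR and 0.452 CPM in WT. The change of its difference from day 0 to day 1 was not called (2.43 ± 1.02, adjusted p 0.6534). Ebf1 turned round: it was higher in amKR by 1.01 on day 0 and 0.99 on day 1, and lower by 1.40 on day 4 at 11.0 CPM in amKR and 29.1 CPM in WT (-2.39 ± 0.28, adjusted p 6.435e-06). Sox4 (-1.06 ± 0.19) and Wt1 (-1.54 ± 0.28) likewise had their rise on day 1 and not on day 4. Tdh, a threonine dehydrogenase of mouse embryonic stem cells, was higher in amKR on all days and most on day 4, by 1.57 (change 1.1 ± 0.18, adjusted p 0.002969). Its day 1 difference of 0.47 lost its call without amKR library 1 or 3 or any WT library (adjusted p up to 0.13), with the component (0.0561) and with each chromosome's median removed (0.08003). These changes, and those of Ccdc136 (-1.38), Mt2 (1.53), Hsf2bp (-1.28) and Elovl7 (1.27), stayed past the threshold in the 19 alternatives run for each.

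**Figure D3:**
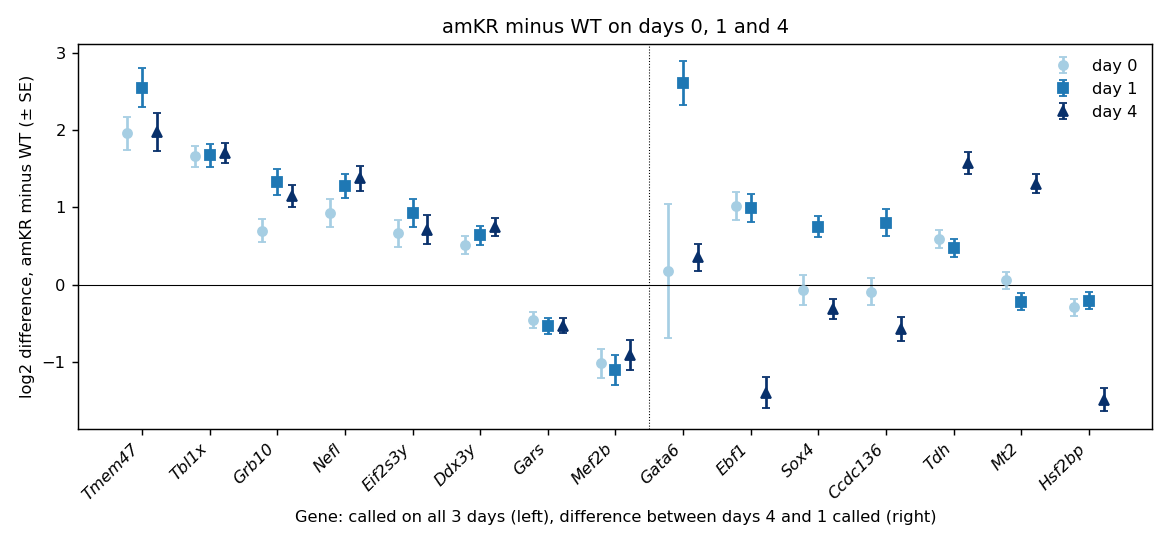
Log2 difference amKR minus WT with its SE (vertical axis) on day 0 (light circles), day 1 (squares) and day 4 (dark triangles). The 8 genes left of the dotted line were called on all 3 days, and the 7 on its right had a called change between days 4 and 1. On the right the Gata6 difference is largest on day 1, with its change from day 0 not called, and Ebf1 changes sign by day 4.

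Among the 12 largest rises, Hopx, an atypical homeodomain cofactor, had 16.0, 10.2 and 12.0 CPM in amKR and 1.8, 1.94 and 0.449 CPM in WT (3.16 ± 0.62, adjusted p 0.01163). Nr0b1, an orphan nuclear receptor of naive stem cells, had 412, 303 and 230 CPM in amKR and 37.5, 38.8 and 33.2 CPM in WT (3.11 ± 0.63, adjusted p 0.01758). Both follow the shared component, and with it as a covariate their differences were 1.95 and 1.44, still called (adjusted p 0.004915 and 0.01987). EV library 3, the one that scored with WT, had 28.0 CPM of Nr0b1 while the other EV libraries had 219 and 157 CPM. The EV libraries were among those that set the component, so these values are no separate evidence that Nr0b1 follows it. Hopx lost its call without amKR library 1, WT library 1 or WT library 3 (adjusted p up to 0.0663), and Nr0b1 without amKR library 1 or any WT library (up to 0.0898).

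Igfbp4, which binds insulin-like growth factors, had 6.72, 4.39 and 4.43 CPM in amKR and 1.12, 2.15 and 0.673 CPM in WT (1.94 ± 0.43, adjusted p 0.01758, and 1.97 with the component). It was lost without amKR library 1 or WT library 1 or 3 (up to 0.102). Sag, the arrestin of photoreceptors, and Prkx, an X-linked kinase, differed by 2.11 and 2.08, and Fam72a by 1.98. Pnp, a purine enzyme with a close copy beside it, differed by 1.84 and Zfp988, of a repeated zinc finger family, by 1.99, so their reads may be shared with copies. Of these, Zfp988 alone stayed called with the component (0.99, adjusted p 0.03532), against adjusted p of 0.133 for Sag, 0.06628 for Prkx, 0.3288 for Fam72a and 0.5903 for Pnp. Without amKR library 1, WT library 1, WT library 2 or WT library 3, each of these 5 also lost its call (adjusted p up to 0.229), and Sag, Zfp988 and Pnp lost it without amKR library 3 too. Fam72a was also not called with each chromosome's median removed (0.05298). Prkx and Zfp988 were already called higher in amKR on day 0, by 3.13 (adjusted p 0.0009232) and 2.53 (adjusted p 0.003054).

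**Figure D4:**
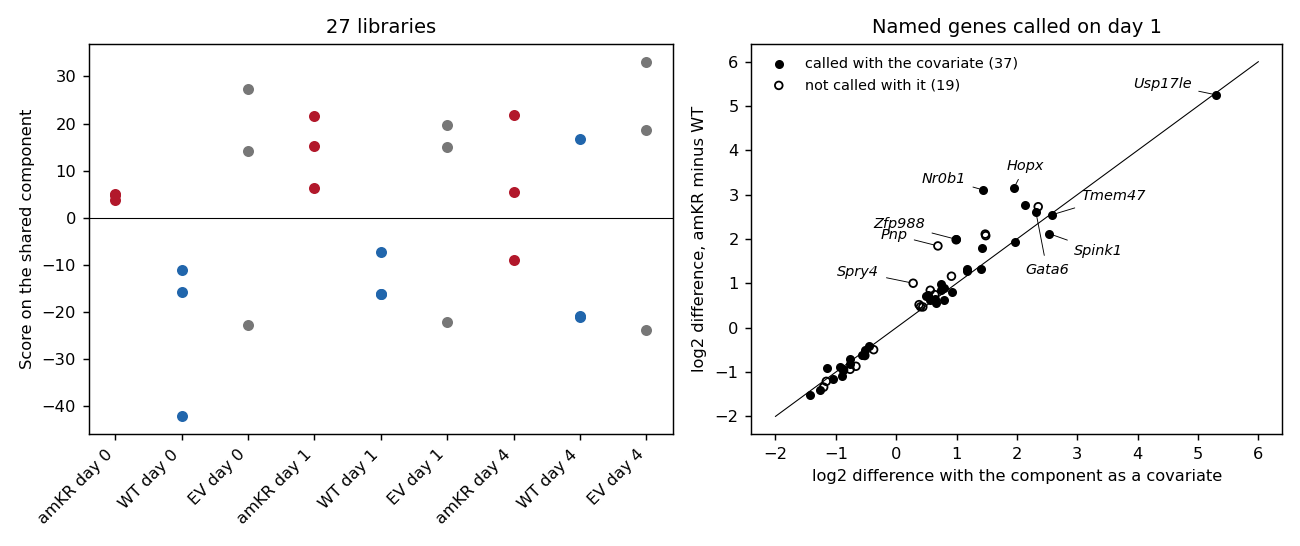
Left, the score of each of the 27 libraries on the shared component, by group, with amKR red, WT blue and EV grey; on day 1 the amKR libraries lie above 0 and the WT libraries below. Right, log2 difference amKR minus WT of the 56 named genes called on day 1 without (vertical) and with (horizontal) the component as a covariate, 37 still called (filled) and 19 not (open); higher genes above the line, such as Nr0b1 and Spry4, and lower genes below it, such as Hand1 and Mef2b, have a smaller difference with the component.

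The largest falls were smaller. Hebp2, a heme-binding protein, had 1.62, 0.731 and 2.88 CPM in amKR and 6.07, 4.74 and 4.49 CPM in WT (-1.51 ± 0.33, adjusted p 0.01519). Hand1, a helix-loop-helix factor of trophoblast and heart, had 8.34, 11.0 and 5.54 CPM in amKR and 16.0, 16.6 and 23.1 CPM in WT (-1.17 ± 0.26, adjusted p 0.01542), with EV at 35.8, 32.8 and 53.4 CPM. Both stayed called with the component (adjusted p 0.02659 and 0.02377). Il34, a ligand of the colony-stimulating factor receptor, differed by -1.34 and B3galnt1, a glycosyltransferase, by -1.21, neither called with the component (0.1246 and 0.06377). The other 8 of the 12 largest falls, Greb1l, Mef2b, Pacs1, Creld1, Sdhaf1, Bet1, Kcnk5 and Zfp282, lay between -1.41 and -0.87, and of these Mef2b alone kept its call without each library in turn. Pacs1, Sdhaf1 and Zfp282 were not called with the component (adjusted p 0.1319, 0.06769 and 0.1562). Il34, Pacs1, Bet1 and Zfp282 were not called with each chromosome's median removed (0.07261, 0.06225, 0.06083 and 0.06103), nor Pacs1 without a low-count filter (0.05915). Il34 also lost its call with non-robust estimates of the spread (0.05102), and Greb1l, Pacs1 and Zfp282 lost theirs with only the 6 libraries compared (0.0523, 0.09439 and 0.0523). Without 1 library the call was lost for Hebp2 (amKR 1, amKR 2 or WT 1, adjusted p up to 0.0911), Hand1 (amKR 1, amKR 3 or WT 3, up to 0.0997), Il34 and B3galnt1 (each without amKR 1, amKR 2 or any WT library, up to 0.188).

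Gene lists were read by role, each beside the share called over all genes given above. Over all 14086 genes tested, 7314 had a positive difference. Of 15 formative epiblast genes, active as cells leave the naive state, 14 had a positive difference (median 0.44, 0.30 with the component), and 2 were called higher. These were Sox4 and Otx2, a homeodomain factor of epiblast and forebrain, with 140, 151 and 125 CPM in amKR and 100, 97.8 and 103 CPM in WT (0.47 ± 0.12, adjusted p 0.0402). Otx2 was not called with the component (0.05858) or without amKR library 1 or 2 or any WT library (up to 0.137). It was also not called with DESeq2's size factors (0.05484), without a low-count filter (0.06736), with each chromosome's median removed (0.09803) or without chromosomes 6 and 8 (0.06803). Of 20 naive genes 3 were higher, Nr0b1, Tcl1 and Tdh, with a median of 0.08. Tcl1, a cofactor of Akt kinase, differed by 0.57 and lost its call without amKR library 1 or 2 or WT library 1 or 2 (up to 0.125) and with each chromosome's median removed (0.05839). The naive factor Klf4 had 144 ± 18.6 CPM in amKR and 131 ± 11.3 CPM in WT, and Esrrb had 178 ± 45.1 CPM in amKR and 205 ± 25.0 CPM in WT (SD, n = 3 each), with adjusted p of 0.5655 and 0.4821 in edgeR's test. None of 16 core pluripotency genes was called (median 0.04).

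Among 11 regulators of primitive endoderm, Gata6 alone was called. Foxa2, Gata4, Sox17 and Hnf4a, which act beside it, were at or below 0.509 CPM on average in amKR and in WT, against 7.01 CPM for Foxa2, 12.6 CPM for Gata4 and 8.08 CPM for Sox17 in EV. Pdgfra had 0.232, 1.22 and 1.33 CPM in amKR and 0.450, 0 and 0 CPM in WT (adjusted p 0.1028). The summed level of the list was 26.9 to 43.0 CPM in amKR and 11.7 to 18.0 CPM in WT, Gata6 included. Of 13 visceral endoderm products 2 were higher. Spink1, a trypsin inhibitor, had 4.40, 5.12 and 7.08 CPM in amKR and 1.12, 0.431 and 2.24 CPM in WT (2.12 ± 0.52, adjusted p 0.03816), a call lost without any library but WT 3 (up to 0.142) and without chromosomes 6 and 8 (0.05277). Trf, transferrin, had 15.5, 30 and 21.9 CPM in amKR and 8.77, 9.69 and 8.52 CPM in WT (1.32 ± 0.29, adjusted p 0.01519), lost without amKR library 2 or any WT library (up to 0.0803). Both stayed called with the component, while Ttr and Apoa4 had no count in either line.

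Basement membrane genes went both ways. The laminin Lamb1 was higher by 0.63 ± 0.14 (adjusted p 0.01792) and follistatin, Fst, an inhibitor of activin, by 1.81 ± 0.43 (0.02286), while the collagen Col4a1 on chromosome 8 was lower by 0.62 (-0.62 ± 0.13, adjusted p 0.01328). Of 14 trophectoderm genes Hand1 alone was called, lower, and the summed level was 132 to 148 CPM in amKR and 171 to 185 CPM in WT. Of 29 forkhead, T-box and mesoderm factors Wt1 and Ebf1 were higher and Hand1 lower. Leaving out 1 library ended the calls of Lamb1 (amKR 1, WT 1 or WT 2, adjusted p up to 0.101), Fst (amKR 1, amKR 2 or any WT library, up to 0.0997) and Col4a1 (amKR 1, amKR 3 or WT 3, up to 0.0881).

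None of 31 Hox genes, classic PRC2 targets that set position along the body, was called (median -0.10, lowest adjusted p 0.124), nor any of 31 other homeobox factors (median 0.36, 0.18 with the component). In EV minus WT on day 1, which shares the WT libraries, the medians of the same lists were 2.06 and 1.82. The 39 Hox genes in the files summed to 21.82 to 28.89 CPM in amKR and 29.85 to 33.64 CPM in WT, and 8 had no count. At such low levels the lack of calls cannot show that the Hox genes were unchanged. None of 26 retinoid enzymes, receptors and targets was called either (median -0.23, and -0.07 with the component). Cyp26a1, which degrades retinoic acid, had 4.64, 4.63 and 3.54 CPM in amKR and 1.8, 2.37 and 2.02 CPM in WT (1.03 ± 0.50, adjusted p 0.2884), and the receptor gene Rarg 373, 376 and 340 CPM in amKR and 423, 370 and 472 CPM in WT (-0.22 ± 0.14, adjusted p 0.418). Of 15 neural genes, Stmn2, a microtubule regulator of neurons, was higher (0.52 ± 0.11, adjusted p 0.01519), not called with the component (0.05597), without amKR library 1 or WT library 1 or 2 (up to 0.0937), or with each chromosome's median removed (0.05195). None of 7 Nodal and streak genes and none of 12 BMP and Id genes was called.

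Feedback genes of signalling pathways rose in a few cases. Axin2, the negative feedback gene of Wnt signalling, had 13.4, 12.9 and 11.5 CPM in amKR and 5.40, 3.02 and 8.52 CPM in WT (1.16 ± 0.28, adjusted p 0.02895), 1 of 29 Wnt genes called. Spry4, an inhibitor of ERK signalling, had 111, 105 and 122 CPM in amKR and 57.5, 65.9 and 45.3 CPM in WT (1.00 ± 0.22, adjusted p 0.01758), and Dusp4, an ERK phosphatase, was higher by 0.75 (0.04093), 2 of 22 genes of the FGF and ERK list. None of the 3 was called with the component, where the differences were 0.92, 0.28 and 0.64 (adjusted p 0.08563, 0.5305 and 0.09203). Without 1 library the calls were lost for Axin2 (amKR 1 or 2, WT 1 or 2, adjusted p up to 0.157), Spry4 (amKR 1 or 3, WT 1 or 3, up to 0.1) and Dusp4 (amKR 1 or 2 or any WT, up to 0.177).

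Of 47 imprinted genes, expressed from 1 parental copy, 4 were higher and 1 lower. Beside Grb10 and Peg10 these were Peg3, Cdkn1c and Igf2r, the receptor that clears insulin-like growth factor 2 (0.87 ± 0.20, adjusted p 0.02245, and 0.05938 with the component). Peg3, a zinc finger gene, had 57.9, 68 and 53.6 CPM in amKR and 34.6, 40.1 and 42.2 CPM in WT (0.62 ± 0.12, adjusted p 0.00526), and lost its call only without WT library 1 (0.0681). Cdkn1c, a cell cycle inhibitor and known PRC2 target, had 19.5, 19.7 and 17.7 CPM in amKR and 12.6, 12.5 and 11.4 CPM in WT (0.64 ± 0.14, adjusted p 0.01758), with EV at 80.3, 64.9 and 66.1 CPM. That call was lost without amKR library 1 or any WT library (up to 0.0838) and with only the 6 libraries compared (0.05428). The median of the imprinted list was 0.10, and parental origin was not measured. Of 26 cell cycle inhibitors and p53 targets, Cdkn1c and Pmaip1, which promotes cell death, were higher (Pmaip1 by 0.84 ± 0.19, adjusted p 0.01865). Pmaip1 lost its call without amKR library 2 or any WT library (up to 0.0945).

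Of 27 listed genes of the 2-cell stage, which mark rare cells in stem cell cultures, 10 had enough counts to be tested. The low-count filter drew on all 9 groups, and the median of these 10 in EV minus WT on day 1 was 5.65. All 10 had a positive amKR minus WT difference, and Usp17le alone was called. It had 1.39, 0.731 and 0.886 CPM in amKR, no count in WT, and 1.64, 2.26 and 2.63 CPM in EV, which makes it at least 4.54-fold higher in amKR at a floor of 3 counts over the WT group. Its call (adjusted p 0.02355) was lost without amKR library 1 or any WT library (up to 0.0994), and its family has near-identical copies. The summed level of the list was 5.68 to 10.6 CPM in amKR and 1.28 to 2.39 CPM in WT, and the median difference was 1.90 with genes lacking a WT count at their bound. Among 31 germline genes Dazl, an RNA-binding protein of germ cells, was higher by 0.85 ± 0.19 (adjusted p 0.01758), not called with the component (0.07084) or without amKR library 1 or WT library 1 or 3 (up to 0.128).

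Few members of the metabolic and structural lists were called. Of 30 amino acid stress genes driven by ATF4, Mthfd2 was lower and 24 had a negative difference (median -0.29). The summed level, scaled for depth only, was 5162 to 5561 CPM in amKR and 5937 to 6545 CPM in WT, without overlap. None of 19 proliferation genes, 21 glycolysis genes or 14 housekeeping genes was called, with medians of 0.01, 0.09 and 0.09, although the summed level of the housekeeping genes was 8843 to 11034 CPM in amKR and 11607 to 12453 CPM in WT. Of 15 genes of cholesterol synthesis 12 had a negative difference (median -0.12), and Msmo1, a sterol oxidase, was called lower (-0.41, adjusted p 0.03287). Of 10 interferon-stimulated genes Ifit1 alone was called, at 3.71, 2.68 and 2.88 CPM in amKR and 0.450, 0.215 and 0.673 CPM in WT (2.73 ± 0.57, adjusted p 0.01574). Ifit1 was not called with the component (0.08712), or without amKR library 1 or WT library 1 or 2 (up to 0.0856), and Msmo1 not without amKR library 1 or any WT library (up to 0.167), without a low-count filter (0.06105) or with each chromosome's median removed (0.1156). Of 17 junction genes, Vim, an intermediate filament of mesenchymal cells, was higher by 0.72 ± 0.16 (adjusted p 0.01758), and Cldn4 and Dsp, of epithelial junctions, were lower (log2 differences -0.50 and -0.63, adjusted p 0.04286 for both). With the component Vim stayed called and neither Cldn4 nor Dsp did (0.1391 and 0.1246). The call was lost without amKR library 1, WT library 1 or WT library 2 for Vim (adjusted p up to 0.0995), without any 1 library for Cldn4 (up to 0.237) and without any but WT library 2 for Dsp (up to 0.177), which was also lost with only the 6 libraries compared (0.05187). Markers of fibroblasts and smooth muscle summed to 33.3 to 40.3 CPM in amKR and 47.9 to 49.9 CPM in WT with Ddr2 the called member, and Postn had no count. Blood and endothelial markers summed to 26.1 to 33.7 CPM in amKR and 20.0 to 23.8 CPM in WT, with 5 of 12 at 0, and none was called.

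**Figure D5:**
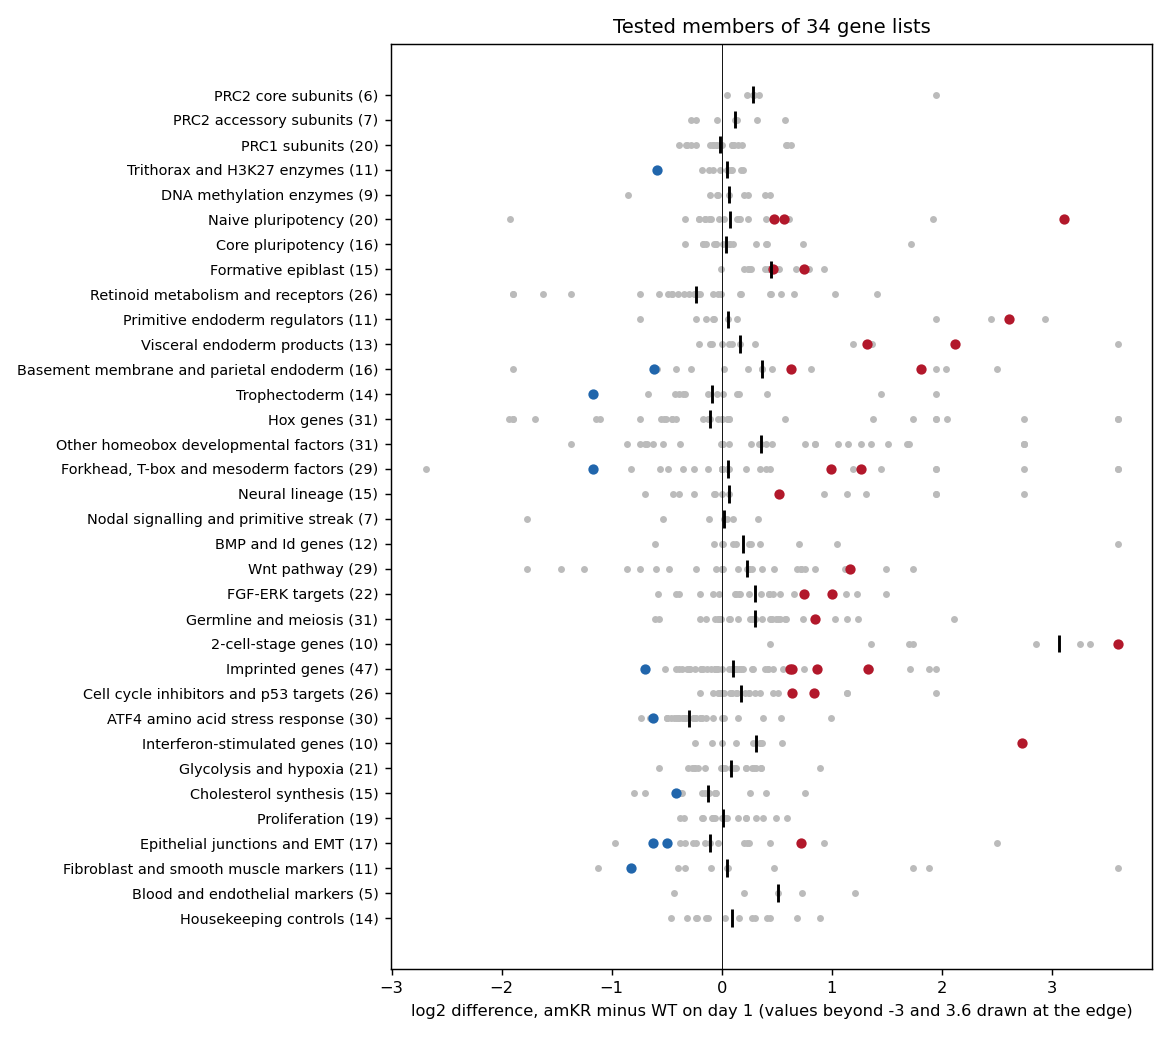
Log2 difference amKR minus WT on day 1 (horizontal axis) of each tested member of 34 gene lists, with the number tested in brackets. Red points were called higher in amKR, blue points lower and grey points not called. Black bars are medians, most of which lie near 0, with the 2-cell-stage list farthest to the right. That bar is the median of the fitted differences (3.06), without the bound that the text uses for genes lacking a WT count.

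The authors deposited 2 lists of gene symbols for this comparison, one titled up with 160 symbols and one titled down with 6. In the authors' deposited table titled up, 157 symbols were tested here, all 157 had a positive amKR minus WT difference (median 1.43) and 43 were called higher, 27.4% of the list and 29.1% of the genes called higher. Of these 157 genes, 137 rose with the shared component (87.3%), against 63 of the 148 genes called higher and 2147 of all 14086 tested. The median of the 157 with the covariate was 0.69. The score was computed from all genes tested, these included, and sets the compared libraries apart, so these shares are no independent evidence. In the authors' deposited table titled down, all 6 had a negative difference and 3 were called lower. The lists come from these same libraries, so they are no independent evidence of direction.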

How the data were processed

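RNA was measured in mouse embryonic stem cells by QuantSeq 3′ mRNA sequencing, a stranded kit. The authors deposited 1 file of raw counts per gene and library, mapped to mm10 per the submitters' processing notes; the aligner, counter, annotation release and strand setting of the counting are not given in the sources used here. The counting's special entries were left out of library sizes. Symbols and coordinates came from a table of Ensembl IDs and GENCODE vM21 (55227 of 55487 IDs matched). Libraries were grouped by title.

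Counts were analysed with edgeR 4.0.16 and limma 3.58.1 in R 4.3.3. All 27 libraries of the Ezh2 series (9 groups of 3) entered 1 quasi-likelihood fit with TMM scaling, robust spread estimates and a mean per group, so every group shares the estimate of spread. The low-count filter kept 14086 of 55487 genes, and p-values were adjusted over these. Log2 CPM used a prior count of 2, and group floors 3 counts. Replicates were compared by chi-square over genes and every pair differed by more than sampling noise. The code was tested on simulated data.

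Alternatives were other size factors, no low-count filter, DESeq2 1.42.0, a replicate block, a chromosome offset, other sets of libraries or genes, each library left out in turn, and, added after seeing the data, non-robust estimates and the shared component as a covariate. The genes named were Ezh1, Ezh2, Suz12 and Eed, the 12 genes with the largest difference each way that were called with libraries not overlapping and a higher group mean of at least 5 CPM, up to 3 called members of each of 34 gene lists, the 5 smallest p each way for the changes between days, and the 3 smallest p on chromosomes with a median over 0.1 in size. The groups, genes and lists were chosen with earlier results of these data known. Protein sequences were not used here.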

Additional observations from a re-analysis of the deposited data

Results flagged for a closer look

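The amKR minus WT difference changed between day 1 and day 4 in 33 genes by edgeR's test of the difference itself, and 13 of these were named. Values are log2 differences on day 4 minus those on day 1. The change was negative for Ebf1 (-2.39), Gata6 (-2.25), Wt1 (-1.54), Dazl (-1.40), Ccdc136 (-1.38), Hsf2bp (-1.28) and Sox4 (-1.06). In Hsf2bp amKR was lower on both days and more so on day 4 (-0.20 on day 1 and -1.49 on day 4). It was positive for Mep1b (5.02), Mt2 (1.53), Elovl7 (1.27), Tdh (1.1), Fam129a (1.03) and Msmo1 (0.64). Of these, 9 stayed past the threshold in all 19 alternatives run for each. Dazl did so in 12, Msmo1 in 4, and Mep1b and Fam129a in 17 each.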

How the results depend on the processing

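On day 1, 230 genes were called, and the alternatives gave 501 without a low-count filter, 473 with DESeq2 and 671 with only the 6 libraries compared, and 55 to 194 with each library left out in turn. The replicate block gave 268. Deviations of same-numbered amKR and WT libraries from their group means correlated at 0.013, -0.088 and -0.149. The labels do not say what the numbers mean, and these few values cannot settle whether they pair the libraries. For the change from day 0 to day 1, with 0 genes called, the alternatives gave 24 without a filter, 3 with DESeq2, 1 with the replicate block, 0 to 1 with a library left out and 32 with the shared component. For the change from day 1 to day 4, with 33, they gave 79 without a filter, 66 with DESeq2, 29 with the replicate block, 14 to 36 with a library left out and 107 with the component. The split of day 1 calls, 148 higher to 82 lower, was 108 to 84 with each chromosome's median removed and 523 to 148 with only the 6 libraries. Among values of called single genes the sign turned round for Ddx3y, to -0.0188 with each chromosome's median removed, since that setting takes out the median of chromosome Y itself; Suz12, not called, went to -0.03 without amKR library 2, against 0.05. The component covariate and non-robust estimates (282 calls on day 1) were chosen after seeing the data. At this depth genes with few counts limit the precision, and 3 counts correspond to 0.639 to 0.710 CPM in a library of day 1. With 3 libraries a group, 43 of the 56 named genes lost their call without at least 1 library. The cause of these changes was not tested.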
